A study of Rattus norvegicus with 12 samples.

Results

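The thick ascending limb of the loop of Henle and the sodium pump were followed through 8 genes in rat kidney: Slc12a1, Umod, Kcnj1, Bsnd, Atp1b1, Fxyd2, Slc9a3 and Egf. All probe sets that the array annotation assigns to these symbols alone were taken, which gave 9 probe sets of 31042 on the array, 2 of them for Atp1b1 and 1 for each of the other genes. The arrays measured kidney RNA from 12 male Zucker rats, 1 array per rat, in 4 groups of 3. The groups were obese rats fed ground chow with rosiglitazone at 3 mg per kg body weight, obese rats on the same chow without the drug, lean rats with rosiglitazone and lean rats on control chow, all kept on their diet for 12 weeks. In the labels the animals are called a diabetes model, with neither an age, a genotype nor a kidney region stated. Zucker rats become obese when both copies of the leptin receptor gene are defective, and rosiglitazone is a thiazolidinedione that activates the nuclear receptor PPARgamma.

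The thick ascending limb takes up sodium chloride without water and so builds the gradient that lets the kidney concentrate urine. Its luminal membrane carries the cotransporter NKCC2, encoded by Slc12a1 and blocked by loop diuretics, and the potassium channel ROMK, encoded by Kcnj1, which returns potassium to the lumen. Chloride leaves through basolateral channels that need the subunit barttin (Bsnd), and sodium leaves through the sodium pump, of which Atp1b1 encodes the beta1 subunit and Fxyd2 the regulatory gamma subunit. Umod encodes uromodulin and Egf the epidermal growth factor precursor, both made in the distal nephron, while Slc9a3 encodes the sodium proton exchanger NHE3 of the proximal tubule and the thick ascending limb.

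RefSeq promoter sequences of the GRCr8 assembly were matched by symbol for 6 of the 8 genes, all but Atp1b1 and Fxyd2. Each runs from 250 bases before to 50 bases after an annotated start. Of the matched genes, the windows of Slc12a1, Kcnj1 and Umod are shown. As deposited, the signals of these 3 genes differed between body types over both diets (adjusted p under 0.05, limma). Those of Atp1b1 did too, but no window could be shown for it. The windows were searched on both strands for 4 motifs. The letters TATAAA stand for the TATA box, to which the general transcription machinery binds. The CCAAT box was searched by the letters of its name. The letters AGGTCA are the element that nuclear receptors, PPARgamma among them, bind in pairs. The letters GTTAAT are the element that the kidney factor HNF1 binds in pairs. Capitals mark every match, and no match overlapped another.
Slc12a1, chr3:132859340-132859639, plus strand: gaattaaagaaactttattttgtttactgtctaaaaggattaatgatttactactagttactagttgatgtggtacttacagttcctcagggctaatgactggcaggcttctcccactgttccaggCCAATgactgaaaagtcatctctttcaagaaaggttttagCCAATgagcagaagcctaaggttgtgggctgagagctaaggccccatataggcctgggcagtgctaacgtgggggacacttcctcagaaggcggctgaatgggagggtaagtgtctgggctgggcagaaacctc
Kcnj1 first start, chr8:39037742-39038041, plus strand: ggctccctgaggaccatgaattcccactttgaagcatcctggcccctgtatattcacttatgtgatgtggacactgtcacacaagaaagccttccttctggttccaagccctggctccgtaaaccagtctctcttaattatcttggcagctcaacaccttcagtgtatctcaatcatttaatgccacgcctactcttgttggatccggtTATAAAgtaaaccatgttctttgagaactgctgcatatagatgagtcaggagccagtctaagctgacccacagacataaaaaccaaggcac
Kcnj1 second start, chr8:39061391-39061690, plus strand: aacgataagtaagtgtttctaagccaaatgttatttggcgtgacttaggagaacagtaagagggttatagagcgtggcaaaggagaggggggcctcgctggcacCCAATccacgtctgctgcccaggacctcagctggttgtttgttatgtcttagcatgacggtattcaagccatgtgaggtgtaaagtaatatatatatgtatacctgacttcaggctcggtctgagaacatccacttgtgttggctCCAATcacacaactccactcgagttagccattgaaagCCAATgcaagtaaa
Umod, chr1:183260967-183261266, minus strand, printed in the direction of the gene: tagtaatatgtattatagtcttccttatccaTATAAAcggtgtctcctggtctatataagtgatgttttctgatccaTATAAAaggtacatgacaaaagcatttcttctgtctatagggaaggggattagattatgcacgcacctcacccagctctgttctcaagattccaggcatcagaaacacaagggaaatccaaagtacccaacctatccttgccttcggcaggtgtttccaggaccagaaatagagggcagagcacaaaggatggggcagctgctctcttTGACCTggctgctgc
RefSeq lists a second Slc12a1 start close downstream, whose window overlaps the one shown and holds the same pair of CCAAT boxes, at bases -193 and -153 from that start. The Slc12a1 window shown held CCAAT at bases -124 and -84 from the start, and neither AGGTCA nor GTTAAT was among its letters. The first Kcnj1 start had a TATAAA at base -41, and the second had CCAAT at bases -146, -1 and 37. Umod held TATAAA at bases -219 and -173 and the reverse complement of AGGTCA at base 36. Among all 33469 promoters of that length in the table, 37.5% held the CCAAT box on either strand, 14.2% the TATA box, 16.2% the nuclear receptor element and 7.45% the HNF1 element.

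The signals are MAS5 values on a linear scale, and each array had been scaled to a trimmed mean of 500.1. The 9 probe sets lay high in the range of every array: between 0.0193% and 12.3% of probe sets were brighter than a given member on a given array. Further markers of the thick ascending limb had mean signals over the arrays of 859 for Cldn16, 6718 for Cldn10 and 7869 for Ppp1r1a. The lowest Cldn16 signal on any array was 702. Claudin 16, its product, forms the path for magnesium between the cells. Brightness depends on the probes, so the levels of different genes are not set against each other. In whole tissue, fewer cells of a type and less RNA per cell cannot be told apart.

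The arrays differed at the top of the range, and this touches the brightest members. The signal at the 99.9th percentile was 13537 to 16551 on the obese arrays and 14781 to 18592 on the lean ones. The cre spike-in controls, bacteriophage RNA added during processing, divided the arrays at their widest gap into a higher class of 5 (obese control 1, lean rosiglitazone 1 and 2, lean control 1 and 2) and a lower class of 7. Every obese rosiglitazone array fell in the lower class. Results over both diets are therefore given as deposited and, where a call turns on it, in 3 further settings: after quantile normalization, with a term for the class in the model, and on the lower-class arrays alone, where each lean group keeps 1 array that is assumed to vary like the others. What set the classes apart was not tested, and from these signals a difference between arrays at the top of the range and a difference in the RNA of the bright genes cannot be told apart.

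**Figure D1:**
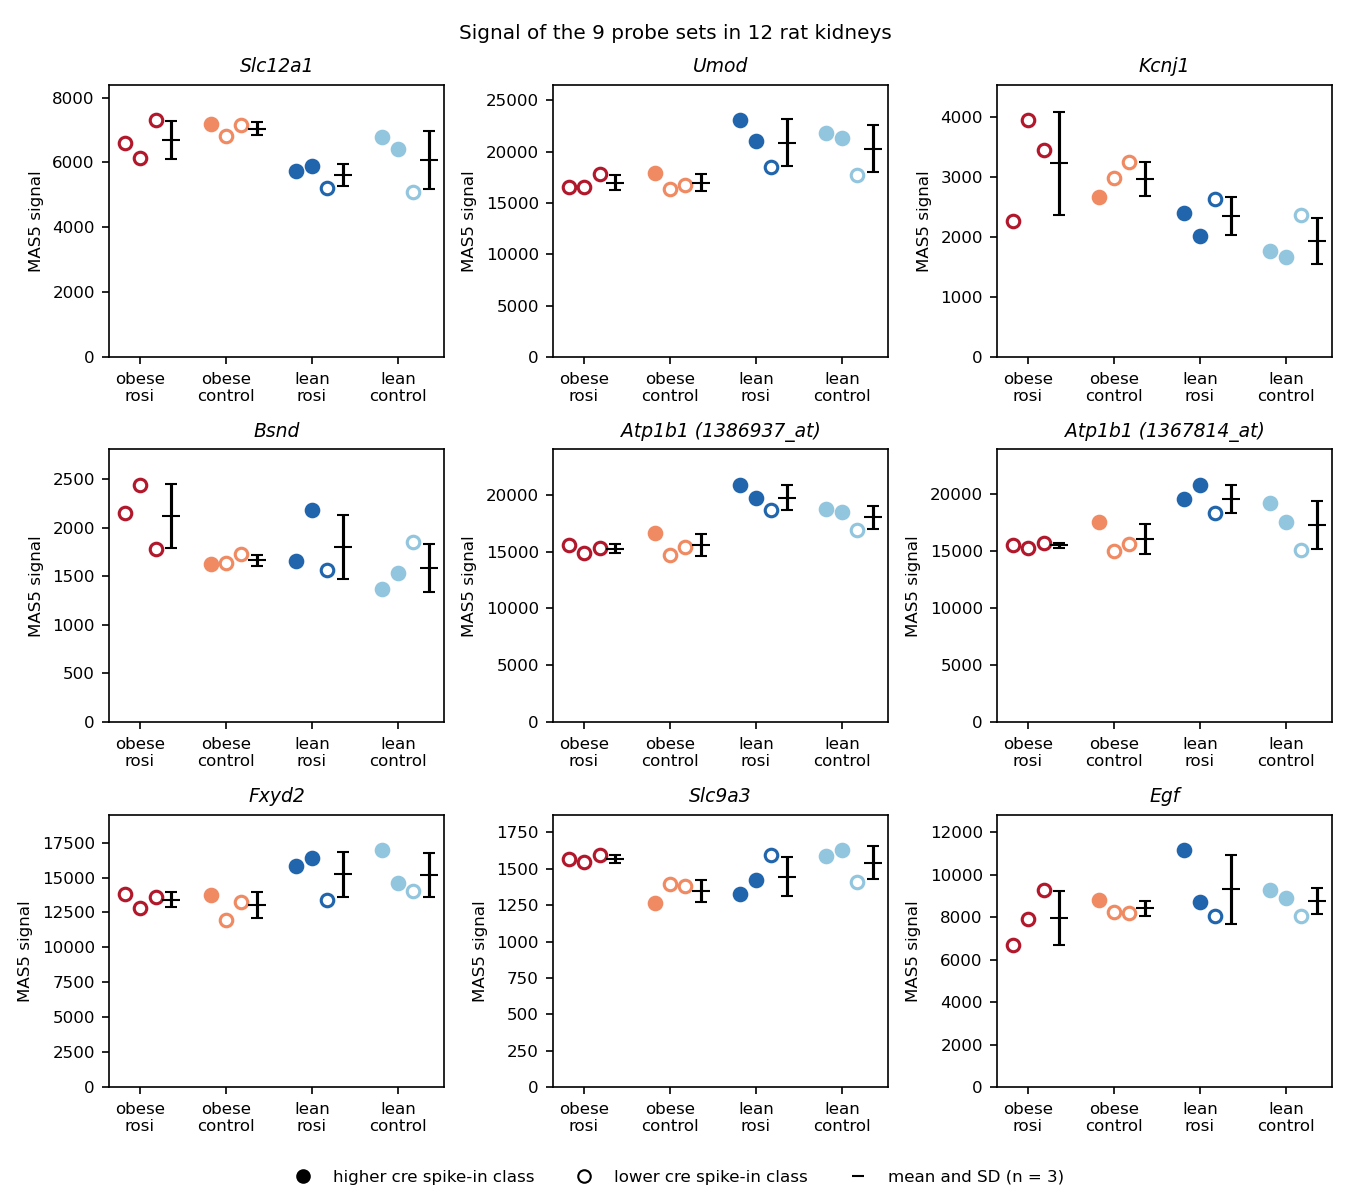
MAS5 signal (vertical axes, from 0) of each of the 9 probe sets on each of 12 arrays, by group, with obese groups left of lean groups. Filled points are arrays of the higher cre spike-in class, open points those of the lower class, and black bars give the group mean and SD (n = 3). All obese arrays of the first Atp1b1 probe set lie below all lean arrays, and Slc12a1 is higher in obese than in lean rats within each diet.

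Over both diets, 5 of the 9 member probe sets passed an adjusted p of 0.05 between obese and lean rats (limma, Benjamini-Hochberg over 18625 probe sets), 2 higher and 3 lower. Across all probe sets tested, 14.3% passed, 7.69% higher and 6.62% lower, and all 9 members had passed the filter on dim probe sets. The 2 that rose were Slc12a1 and Kcnj1, the luminal cotransporter and channel. Those that fell were Umod and both Atp1b1 probe sets, and the calls depended on the setting: after quantile normalization none of these 3 was called, with the class term Umod and the first Atp1b1 probe set were, and within the lower class the first Atp1b1 probe set alone. The median change of the members was -0.14 on the log2 scale, against 0.03 over all probe sets tested.

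Slc12a1 (1368548_at) encodes the cotransporter that carries sodium, potassium and chloride together from the lumen. Its signals were 6610, 6146 and 7309 in obese rats on rosiglitazone and 7172, 6810 and 7142 in obese rats on control chow. The lean rats had 5743, 5883 and 5228 on rosiglitazone and 6776, 6410 and 5078 on control chow. Within each diet every obese rat was above every lean rat, and the nearest pair were obese control 2 and lean control 1. Over both diets Slc12a1 averaged 6865 ± 437 in obese and 5853 ± 658 in lean rats (SD, n = 6 each), a log2 change of 0.23 with an SE of 0.07 and an adjusted p of 0.0496 by limma. That call sits at the threshold: it was kept without lean control 1 or obese rosiglitazone 2 and lost without any other single array, where the changes ran down to 0.17.

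The Slc12a1 call over both diets was kept in 7 of 22 alternatives, those without 1 array included. The difference itself was larger in each of the 3 further settings. After quantile normalization it was 0.37 with an adjusted p of 0.000784. With a class term it was 0.33 with an adjusted p of 0.00742, and within the lower class 0.40 with an adjusted p of 0.0248 (limma). In that lower class the 5 obese arrays ranged from 6146 to 7309 and the 2 lean arrays held 5078 and 5228. Within the higher class only control chow could be compared, 1 obese array against 2 lean ones, and the change was 0.12 with an adjusted p of 0.785. By diet, as deposited, the change was 0.25 on rosiglitazone (adjusted p 0.203) and 0.22 on control chow (adjusted p 0.28). The control chow value was called after quantile normalization, at 0.35 (adjusted p 0.022), and was 0.09 without lean control 3 (adjusted p 0.633).

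Kcnj1 (1369451_a_at), the ROMK channel that recycles potassium so that NKCC2 can keep working, had the widest spread of the members. It gave 2274, 3955 and 3461 in obese rats on rosiglitazone and 2678, 2983 and 3255 in obese rats on control chow. The lean rats had 2407, 2020 and 2645 on rosiglitazone and 1766, 1673 and 2369 on control chow. On control chow every obese rat was above every lean rat, whereas on rosiglitazone obese rat 1 lay below lean rats 1 and 3. Kcnj1 averaged 3101 ± 593 in obese and 2147 ± 387 in lean rats over both diets (SD, n = 6 each). The log2 change was 0.52 with an SE of 0.13 and an adjusted p of 0.0168 (limma), 1.44-fold on the scale of log2(signal + 16), and it remained called without any 1 array.

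The Kcnj1 change was smaller in both class settings. After quantile normalization the change was 0.56 (adjusted p 0.0176), with the class term 0.37 (adjusted p 0.0919) and within the lower class 0.32 (adjusted p 0.358, limma). Within the higher class, on control chow only, it was 0.63 (adjusted p 0.222), as it was over all arrays of that diet. Over the 12 arrays its log2 signal fell as the top of the range became brighter, with r = -0.75, and as the ratio of 3′ to 5′ actin signal grew, with r = -0.73. That ratio, a measure of RNA integrity, was highest on obese rosiglitazone 1, at 2.40, and lowest on obese rosiglitazone 2, at 1.57. Those same arrays held the lowest and the highest Kcnj1 signal of the obese rats. The part of RNA integrity in the Kcnj1 result was not tested.

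Bsnd (1393209_at), the barttin subunit that brings the basolateral chloride channels to the membrane, had signals of 2147, 2438 and 1778 in obese rats on rosiglitazone and 1621, 1636 and 1730 in obese rats on control chow. In lean rats it had 1658, 2177 and 1563 on rosiglitazone and 1366, 1531 and 1852 on control chow. The body types overlapped on both diets. The change over both diets was 0.16 with a 95% interval of -0.06 to 0.38 and an adjusted p of 0.34 (limma), and it was 0.14 to 0.16 in the other 3 settings.

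The sodium pump subunits were among the brightest probe sets of the array. The first Atp1b1 probe set (1386937_at), for the beta1 subunit that carries the pump to the basolateral membrane, gave 15595, 14827 and 15287 in obese rats on rosiglitazone and 16653, 14733 and 15404 in obese rats on control chow. The lean rats had 20846, 19679 and 18655 on rosiglitazone and 18737, 18450 and 16858 on control chow. No obese rat reached the lowest lean rat. As deposited, Atp1b1 averaged 15416 ± 692 in obese and 18871 ± 1330 in lean rats (SD, n = 6 each), a log2 change of -0.29 with an SE of 0.05 and an adjusted p of 0.00271 (limma). It passed without any 1 array. With the class term the change was -0.22 (adjusted p 0.00231) and within the lower class -0.23 (adjusted p 0.0337, limma), both called, whereas after quantile normalization it was 0.00 (adjusted p 0.993).

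The second Atp1b1 probe set (1367814_at) ranged from 15011 to 17502 in obese rats and from 15041 to 20779 in lean rats, so the body types overlapped through lean control 3. Its change was -0.22 with an adjusted p of 0.0419 as deposited, and 0.08 with an adjusted p of 0.116 after quantile normalization (limma). With the class term and within the lower class it was -0.11 each time (adjusted p 0.115 and 0.219). It stayed called when obese control 1, lean rosiglitazone 3 or lean control 3 was left out, and lost its call without any other single array. Fxyd2 (1387799_at), the gamma subunit that tunes the affinity of the pump for sodium, ranged from 11966 to 13815 in obese rats and from 13421 to 16968 in lean rats. The Fxyd2 change was -0.20 with an adjusted p of 0.066, and 0.01 after quantile normalization. It was -0.11 (adjusted p 0.236) with the class term and -0.08 (adjusted p 0.504) within the lower class, by limma. Of the pump probe sets, the first of Atp1b1 was thus the one called in both class settings, and the difference between the subunits was not tested.

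Umod (1368333_at), for uromodulin, the main protein of normal urine, behaved like the pump. Its signals were 16572, 16527 and 17845 in obese rats on rosiglitazone and 17921, 16369 and 16714 in obese rats on control chow. In lean rats they were 23092, 21038 and 18525 on rosiglitazone and 21833, 21375 and 17700 on control chow. The lean arrays of the lower class, rosiglitazone 3 and control 3, lay close to the obese ones. Umod averaged 16991 ± 700 in obese and 20594 ± 2061 in lean rats (SD, n = 6 each). The log2 change was -0.27 with an SE of 0.07 and an adjusted p of 0.0171 as deposited, -0.16 (adjusted p 0.0348) with the class term, -0.11 (adjusted p 0.233) within the lower class and 0.08 (adjusted p 0.113) after quantile normalization, all by limma.

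The level of other bright probe sets was measured to set beside these members. On the array, 46 other probe sets were at least as bright as Fxyd2, whatever their gene. Their mean signal per array was 14551 to 17300 in obese and 16255 to 20837 in lean rats. Of the 46, 45 were lower in obese rats over both diets, 31 of them called, and their median change was -0.29, next to -0.29 and -0.22 for Atp1b1, -0.27 for Umod and -0.20 for Fxyd2. After quantile normalization, which sets the top of all arrays equal by construction, the median of the 46 was -0.01. With the class term the median of the 46 was -0.17, with 24 called lower, and within the lower class -0.14, with 12 called lower. The first Atp1b1 probe set, at -0.22 and -0.23, lay below these medians, while Umod, the second Atp1b1 probe set and Fxyd2 fell by less than these medians.

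Across the 12 arrays the log2 signals of these members followed the 99.9th percentile signal, with r = 0.96 for Umod, 0.91 and 0.89 for the Atp1b1 probe sets and 0.89 for Fxyd2. Slc12a1 did not follow it in this way (r = -0.14), nor did Slc9a3 (r = -0.10), while Egf gave 0.69 and Bsnd -0.44. These are descriptions over arrays that share their group differences, without a test. Once each group's mean was removed, however, Slc12a1 varied with Umod (r = 0.85) and with the second Atp1b1 probe set (r = 0.83), and Kcnj1 ran against both, with r = -0.42 and -0.58. Within groups, then, Slc12a1 moved with the bright members, although between body types it moved against them.

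**Figure D2:**
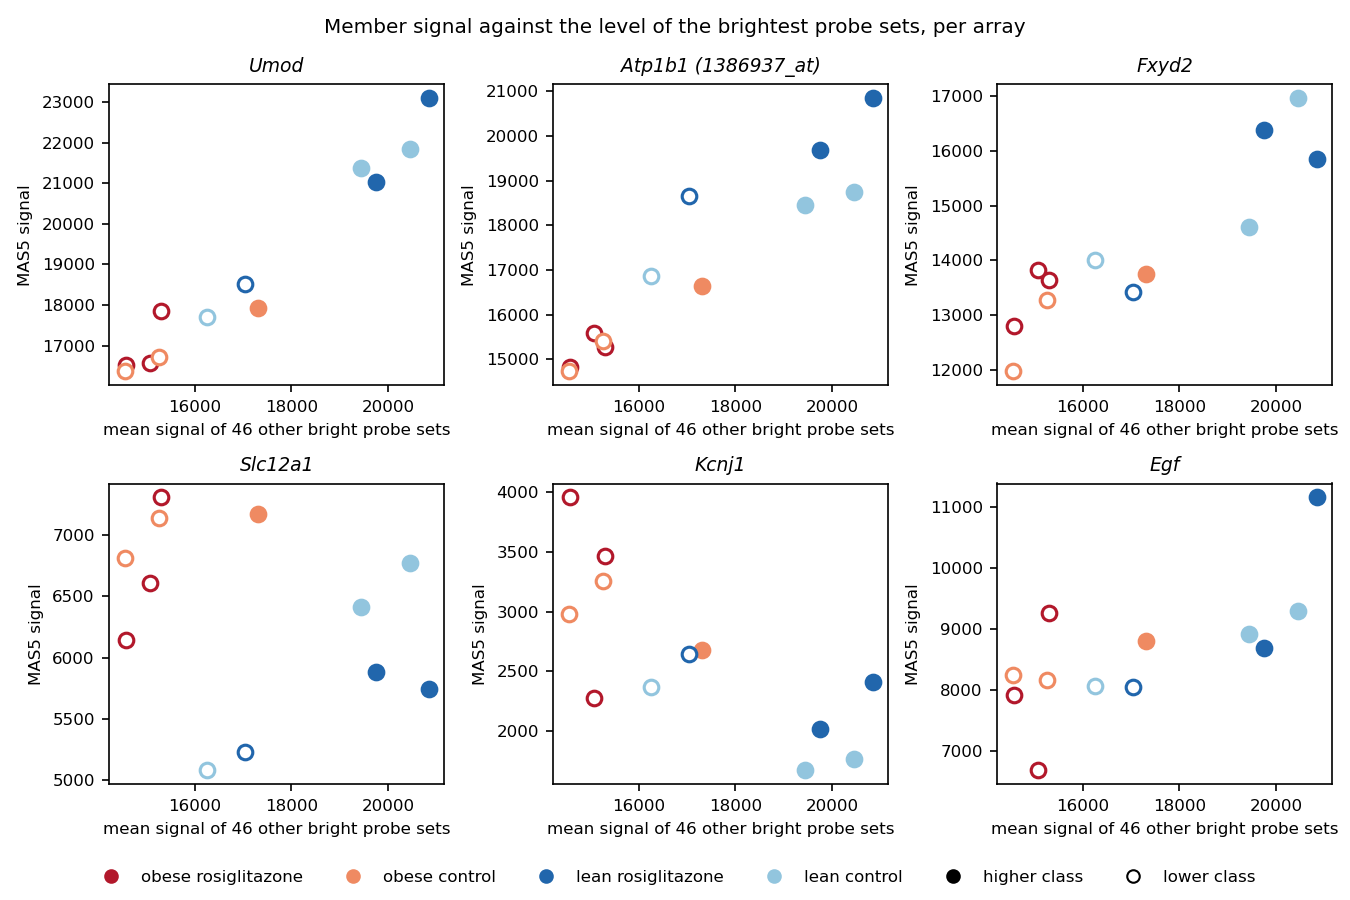
MAS5 signal of 6 member probe sets (vertical axes, not from 0) against the mean signal of the 46 other probe sets at least as bright as Fxyd2 (horizontal axes), 1 point per array, coloured by group and filled for the higher cre spike-in class. Umod, Atp1b1 and Fxyd2 climb with the other bright probe sets, Kcnj1 runs against them, and the lean lower-class arrays hold the lowest Slc12a1 signals, 5228 and 5078.

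**Figure D3:**
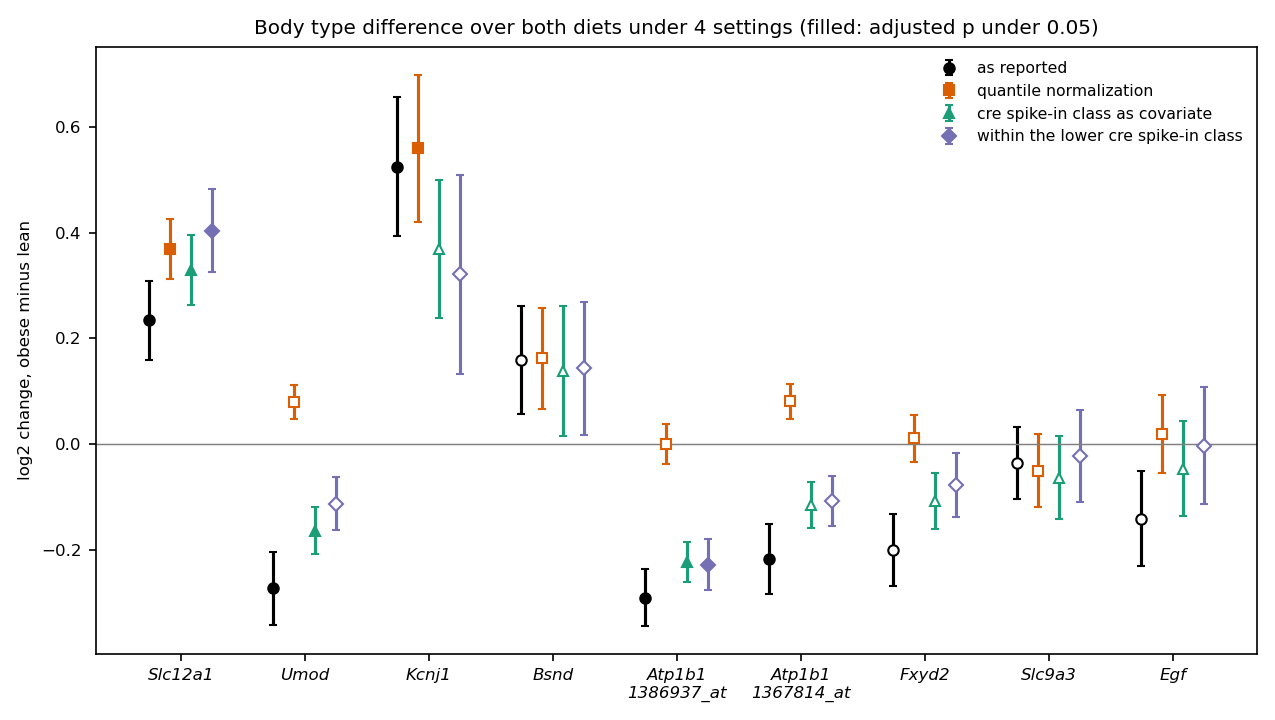
Log2 change of obese minus lean rats over both diets (vertical axis) for the 9 probe sets, as deposited, after quantile normalization, with a term for the cre spike-in class, and in the lower class alone. Bars are SE and filled points have an adjusted p under 0.05. Slc12a1 is filled in each of these 4 settings, at 0.23 to 0.40, and Umod, Atp1b1 and Fxyd2 are negative as deposited but lie at 0.00 to 0.08 after quantile normalization. The first Atp1b1 probe set stays filled in both class settings.

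Egf and Slc9a3 did not pass between body types over both diets. Egf (1368325_at), the precursor of a growth factor that is released to the urine and also promotes magnesium uptake in the distal convoluted tubule, had 6686, 7922 and 9255 in obese rats on rosiglitazone and 8801, 8251 and 8170 in obese rats on control chow. The lean rats had 11157, 8696 and 8057 on rosiglitazone and 9289, 8920 and 8062 on control chow. The groups overlapped on both diets, and the Egf change was -0.14 with a 95% interval of -0.33 to 0.05 (adjusted p 0.338, limma). In the other 3 settings Egf lay between -0.05 and 0.02. Slc9a3 (1387542_at), the exchanger that takes up sodium against protons, had a change of -0.04 with a 95% interval of -0.18 to 0.11 (adjusted p 0.778), and between -0.06 and -0.02 in the other 3 settings. On control chow alone every obese rat was below every lean rat for Slc9a3, with 1263, 1397 and 1380 in obese against 1586, 1629 and 1411 in lean rats, and the change of -0.19 did not pass (adjusted p 0.303).

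By diet, few members passed. On rosiglitazone 1 of 9 was called, the first Atp1b1 probe set, at -0.37 with an adjusted p of 0.0129 (limma), where 5% of all probe sets were called. That value was -0.01 after quantile normalization, where it was not called. The call was also lost with median centring or plain eBayes (without trend and robust), and within the lower class, where 1 lean rosiglitazone array remains. It was lost too without obese rosiglitazone 2 or lean rosiglitazone 1. On control chow 0 of 9 were called with limma, where 4.74% of all probe sets were, and 4 had an unadjusted p under 0.05, as did 18.9% of all probe sets. The member with the lowest adjusted p there was Kcnj1, at 0.63 with an adjusted p of 0.0738. The groups did not overlap for 4 of 9 members on rosiglitazone, against 23.3% of all probe sets, and for 5 of 9 on control chow, against 25.5%.

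No member passed for the effect of rosiglitazone. In obese rats 0 of 9 were called with limma (0.0698% of all probe sets were) and 2 had an unadjusted p under 0.05 (4.92% of all), while the log2 changes of the 9 ran from -0.09 to 0.34. In lean rats 0 of 9 were called (0.00537% of all), none had an unadjusted p under 0.05 (4.79% of all did), and the changes ran from -0.11 to 0.29. Over both body types 0 of 9 were called (0.0591% of all), and 1 had an unadjusted p under 0.05 (5.08% of all). The intervals were wide: for Kcnj1 the 95% interval ran from -0.31 to 0.48 in obese rats and from -0.11 to 0.69 in lean rats.

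In obese rats the members with an unadjusted p under 0.05 were Bsnd and Slc9a3. For Bsnd the 3 obese rats on rosiglitazone, at 1778 to 2438, were all above the 3 on control chow, at 1621 to 1730, and the change was 0.34 (adjusted p 0.971, limma). For Slc9a3 the drug-fed obese rats had 1566, 1544 and 1593, against 1263, 1397 and 1380 in obese rats on control chow, a change of 0.22 (adjusted p 0.979). In lean rats Slc9a3 had 1324, 1420 and 1592 on rosiglitazone and 1586, 1629 and 1411 on control chow, and these groups overlapped. Of all probe sets, 5.56% had every drug-fed obese rat above every obese rat on control chow. All 3 drug-fed obese arrays were of the lower spike-in class and so were 2 of the 3 on control chow.

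The drug effect in obese rats was also set against that in lean rats. None of the 9 members was called for this difference with limma, and 0% of all probe sets were called. Slc9a3 had the only unadjusted p under 0.05 among the members (4.31% of all probe sets had one), with a difference of 0.31, an unadjusted p of 0.0373 and an adjusted p of 0.992 by limma. Within the lower class that difference was 0.00.

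**Figure D4:**
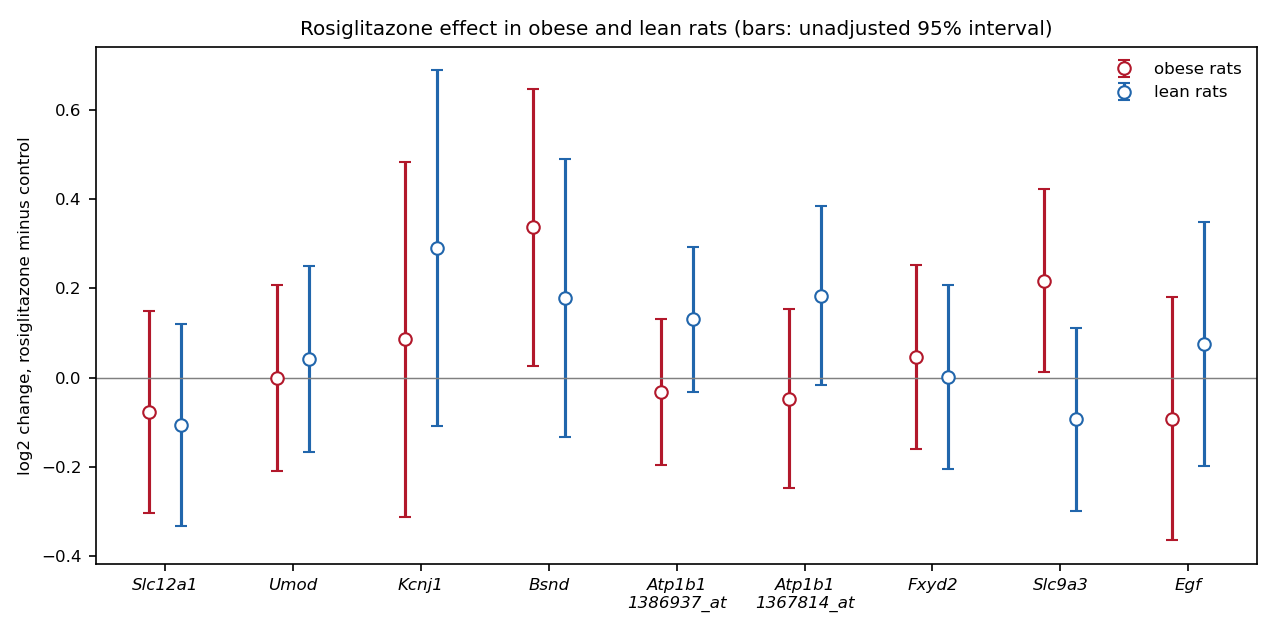
Log2 change of rosiglitazone minus control chow (vertical axis) for the 9 probe sets in obese rats, left of each pair, and in lean rats, with unadjusted 95% intervals from limma. The changes run from -0.09 to 0.34 in obese and from -0.11 to 0.29 in lean rats, and no probe set passes an adjusted p of 0.05.

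Partners of the loop transporters were followed through a list of 32 genes, of which 25 had a probe set that was tested. Over both diets 3 were called higher in obese rats and 1 lower, with a list median of 0.11 against 0.03 for all probe sets. Across all probe sets 7.69% were called higher and 6.62% lower, so the 4 of 25 called are near the background share of 14.3%. Wnk1, a chloride-sensing kinase that acts on the cotransporters through Stk39 and Oxsr1, averaged 7303 ± 856 in obese and 5295 ± 622 in lean rats (SD, n = 6 each), a change of 0.46 with an adjusted p of 0.00271 (limma). Avpr2, the vasopressin receptor that stimulates salt uptake in this segment, averaged 1062 ± 93.2 in obese and 808 ± 78.9 in lean rats, with no overlap, and changed by 0.39 (adjusted p 0.00376). Ptger3, a prostaglandin E2 receptor that opposes vasopressin, rose by 0.39 (adjusted p 0.0228). Hpn, the protease hepsin, which releases uromodulin into the urine, fell by 0.31 (adjusted p 0.00613).

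The partner calls depended on the setting too. After quantile normalization again 3 were called higher and 1 lower, with Wnk1 at 0.59, Avpr2 at 0.36, Ptger3 at 0.38 and Hpn at -0.24. With the class term Ptger3 lost its call (adjusted p 0.107), and within the lower class 0 of the 25 were called with limma, with 5 under an unadjusted p of 0.05. A second Wnk1 probe set (1387072_at) changed by 0.62 (adjusted p 0.0187, limma), and another (1396919_at) by 0.17 (adjusted p 0.355). Avpr2 and Ptger3 also had a second probe set, at 0.17 (adjusted p 0.587) and 0.38 (adjusted p 0.0366). By diet, Wnk1 and Avpr2 were called on control chow, at 0.62 and 0.42, with 4.74% of all probe sets called. On rosiglitazone 0 of the 25 were called with limma, with 7 under an unadjusted p of 0.05 (19.7% of all probe sets were). For the drug 0 were called in either body type, with 3 under that unadjusted p in obese rats (4.92% of all) and 1 in lean rats (4.79%).

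Among other subunits and FXYD proteins of the pump, none passed. Of 13 genes listed, 7 were tested, and over both diets 0 were called with limma and 0 had an unadjusted p under 0.05, as 28.1% of all probe sets had. Their median change was 0.11, against 0.03 over all probe sets. The 4 with the smallest p were Fxyd1 (-0.24, adjusted p 0.243), Atp1b3, the beta3 subunit (-0.12, adjusted p 0.279), Fxyd4, the FXYD protein of the collecting duct (0.20, adjusted p 0.297), and Fxyd3 (0.28, adjusted p 0.299).

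Partners of NHE3 and other exchangers held the highest share of called genes among these 4 lists. Of 23 genes, 14 were tested, and over both diets 1 was called higher and 4 lower in obese rats, where 7.69% of all probe sets were higher and 6.62% lower. Sgk1, a kinase induced by aldosterone and glucocorticoids that raises sodium transport, had 5865 ± 932 in obese and 3539 ± 675 in lean rats (SD, n = 6 each), with no overlap. Its change was 0.73 with an adjusted p of 0.000324 (limma), and 0.83 after quantile normalization. Nherf4, a scaffold protein of the brush border, had 907 ± 108 in obese and 1531 ± 170 in lean rats and fell by 0.75 (adjusted p 6.94e-05). Dpp4, a brush border peptidase that binds NHE3, had 6706 ± 586 in obese and 9659 ± 1050 in lean rats and fell by 0.52 (adjusted p 0.000741). The scaffolds Nherf1 and Pdzk1 fell by 0.36 each (adjusted p 0.00966 and 0.0334), and Pdzk1 lost its call after quantile normalization (adjusted p 0.0626) and with the class term (adjusted p 0.156), where Nherf1 kept it. Within the lower class neither was called, with Nherf1 at -0.25 (adjusted p 0.162) and Pdzk1 at -0.02 (adjusted p 0.894), while Sgk1, Nherf4 and Dpp4 were. A second probe set of Dpp4 changed by -0.28 (adjusted p 0.0846), and one of Nherf1 by -0.32 (adjusted p 0.163).

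Of 11 genes of the epidermal growth factor pathway, 6 were tested and 0 were called with limma over both diets, while 1 had an unadjusted p under 0.05 (28.1% of all probe sets had one). Their median change was -0.06, against 0.03 over all probe sets. Errfi1, an inhibitor of the receptor that is induced by its activity, came nearest, at -0.54 (adjusted p 0.0614). It was -0.28 with the class term and -0.12 within the lower class. Its signals ranged from 2151 to 4119 in obese rats and from 3107 to 6630 in lean rats. Btc (-0.14), Egfr (-0.06) and Tgfa (0.08), a ligand, the receptor and another ligand, had adjusted p-values of 0.578, 0.692 and 0.707.

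**Figure D5:**
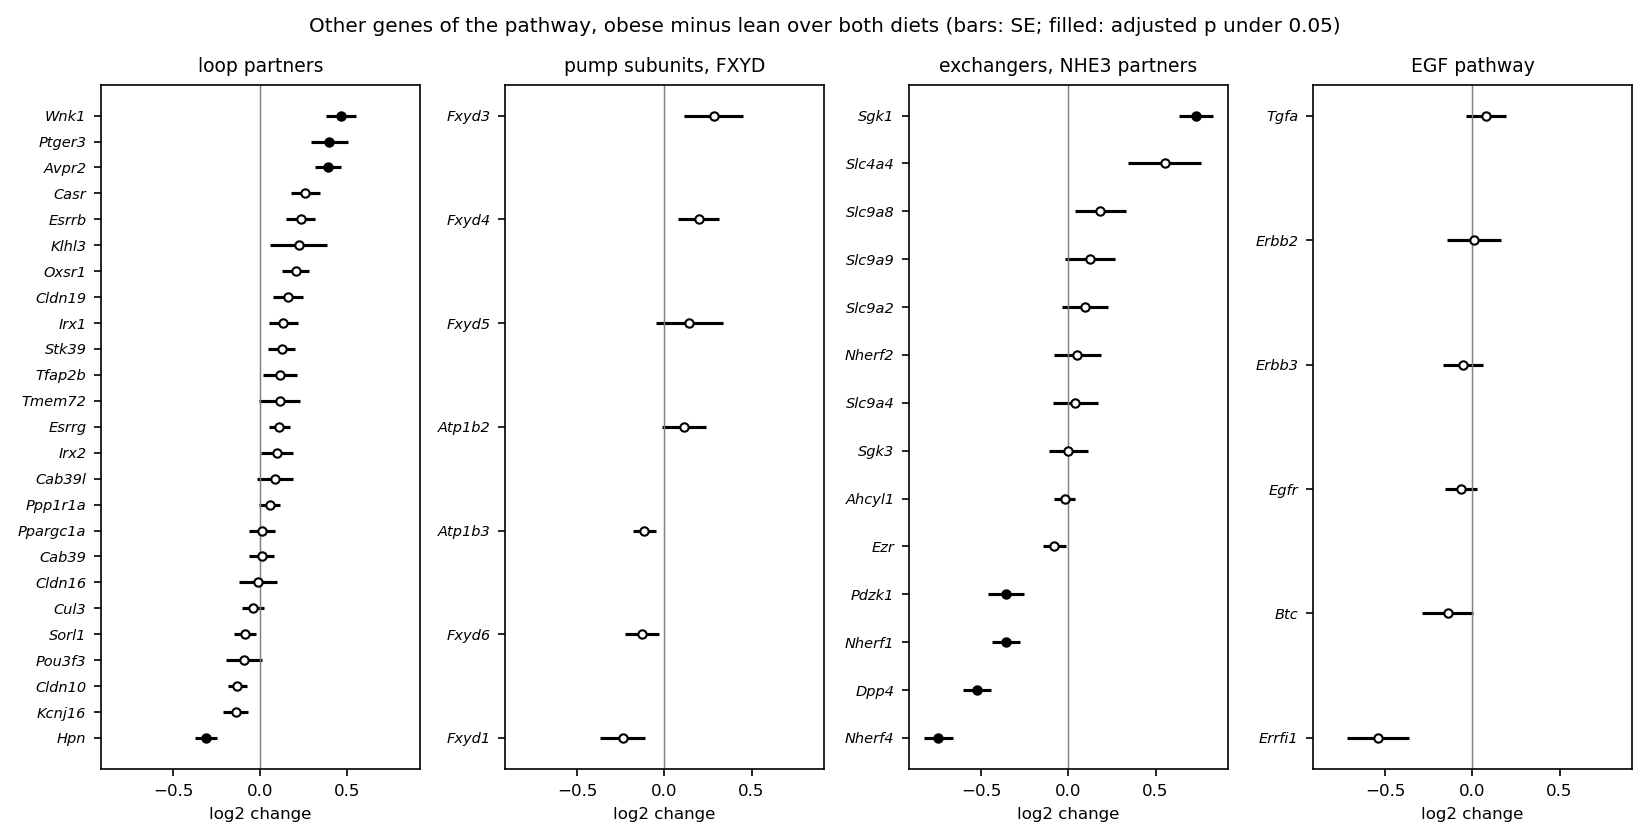
Log2 change of obese minus lean rats over both diets (horizontal axes) for the tested genes of 4 lists: loop partners, other pump subunits and FXYD proteins, other exchangers and NHE3 partners, and the epidermal growth factor pathway. Bars are SE and filled points have an adjusted p under 0.05: Wnk1, Ptger3, Avpr2 and Sgk1 are higher, and Hpn, Pdzk1, Nherf1, Dpp4 and Nherf4 lower.

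Markers of neighbouring segments and of other cells moved with body type as well, beside 7.69% of all probe sets called higher and 6.62% called lower, and their part in the member results was not tested. Of 17 proximal tubule markers tested, 11 were called lower and 1, Slc5a2, the glucose transporter SGLT2, higher in obese rats, and the median change was -0.38. Their summed signal over 18 genes was 128767 to 149331 in obese and 155391 to 196927 in lean rats. After quantile normalization 8 were lower and 1 higher, with a median of -0.16. With the class term 10 were lower and 0 higher, with a median of -0.29, so the higher call was lost. Within the lower class the median of these markers was -0.22. Of 8 collecting duct principal cell markers, 4 were called higher and none lower, with a median of 0.35, and their sum was 28601 to 33333 in obese and 23613 to 27846 in lean rats. The distal convoluted and connecting tubule list had 2 of 7 called higher and the thin limb and inner medulla list 3 higher and 1 lower of 11, with medians of 0.53 and 0.23. With the class term 3 of 8 collecting duct and 1 of 7 distal markers were called higher, with medians of 0.29 and 0.38. The thin limb list kept 3 higher and 1 lower, with a median of 0.27. Within the lower class the medians of these lists were 0.19, 0.22 and 0.35, in that order. Of 8 fat cell markers, 6 were called lower in obese rats, with a median of -1.16 and Ucp1, the uncoupling protein of brown fat, lowest at -4.49. Their summed signal over 9 genes was 7357 to 8693 in obese rats on rosiglitazone and 3964 to 4528 in obese rats on control chow, against 12451 to 22761 in lean rats on rosiglitazone and 6122 to 9394 in lean rats on control chow. The fat cell markers were thus highest in drug-fed lean rats. Among 7 intercalated cell markers 2 were called higher, as were 2 of 3 red blood cell, 1 of 6 podocyte and 2 of 6 smooth muscle and pericyte markers, with 0 called lower in these lists. With the class term 1 intercalated cell, 2 red blood cell, 0 podocyte and 0 smooth muscle and pericyte markers were called higher. Of 5 leukocyte markers 1 was called higher and 1 lower, and of 7 endothelial markers 0 were called with limma, with 2 under an unadjusted p of 0.05.

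The genes whose pattern was most like each member were taken as the 3 with the highest Pearson r of log2 signal over the 12 arrays. For Kcnj1 these were Mfsd4a (r = 0.97), Iqgap1 (0.95) and the second Wnk1 probe set (0.95). For Slc12a1 they were Zfp131 (0.93), Crebzf (0.91) and Fam149a (0.91). Umod was nearest to Itm2b, Slc7a13 and Hao2 (0.97 to 0.98). Atp1b1 was nearest to Kap, Slc3a1 and Cisd1 (0.96 to 0.99), and Fxyd2 to Atp5f1b, Ggt1 and Lrp2 (0.94 to 0.95). Of these, Slc7a13, Slc3a1, Ggt1 and Lrp2 belong to the proximal tubule marker list, whose median change was -0.38. Likeness was looser for Bsnd (Tmed1, Pgp and Ggps1, 0.85 to 0.88), Egf (Pdha1, Naprt and Glce, 0.87 to 0.88) and Slc9a3 (Chd8, Ptprb and Mtg1, 0.79 to 0.88). The highest of many correlations over 12 arrays is a description, and the arrays share their group differences and their spike-in class.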

How the data were processed

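Kidney RNA from 12 male Zucker rats, 1 array per rat, was measured on Affymetrix Rat Genome 230 2.0 arrays. Trizol extraction and biotin labelling are named in the labels. The deposited values are linear signal intensity values that the authors made with MAS5, per the submitters' processing notes; the version is not given in the sources used here. They were used without further normalization. The 57 control probe sets were left out and 18625 of 31042 probe sets with a mean log2(signal + 16) at or above the 40th percentile were tested. Of the 31042, 20826 carried 1 gene symbol, 436 several and 9780 none.

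The fit used limma 3.58.1, run in R 4.3.3 together with statmod 1.5.0, on the log2 values of all arrays with a mean for each of the 4 groups and 8 residual degrees of freedom (eBayes, trend and robust), with Benjamini-Hochberg adjustment within each of 7 comparisons and a threshold of 0.05. The precision is limited by the 3 arrays per group, and fold changes refer to the log2(signal + 16) scale, which understates those of low genes. A gene with several probe sets was represented by the brightest. The procedure was tested on simulated data. These held independent noise for each probe set and no shift between arrays at the top of the range, so they do not bear on calls that turn on such a shift.

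All members were named, and from each list of other pathway genes those called and up to 4 of smallest p. The members, lists, spike-in classes and alternatives were chosen with earlier results of these data known. Alternatives were other offsets, filters, scalings and moderation, the title numbers as a block, the spike-in class, and leaving out each array. Some listed genes were not analysed here because no probe set carried their symbol alone.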

Additional observations from a re-analysis of the deposited data

How the results depend on the processing

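The count of members called between obese and lean rats over both diets, 5, was 3 without the filter on dim probe sets and with a term for the spike-in class, and 2 after quantile normalization, median centring, plain eBayes or within the lower class. Leaving out 1 array gave 3 to 5 members, with 1921 to 2703 of all probe sets called. As deposited 2665 of all 18625 probe sets tested were called. Without the filter 2530 of 31042 were. Of 18625, 2588 were called after quantile normalization, 2000 with the class term, 1907 with median centring and 2311 with plain eBayes. On rosiglitazone the count of 1 was 2 with a filter at the 60th percentile, the class term or the replicate block, and 0 with median centring, plain eBayes or within the lower class, and 0 to 2 without 1 array. The 1 member called on rosiglitazone after quantile normalization was not the one called as deposited. Of all probe sets on that diet, 1002 of 12417 were called with the 60th percentile filter. Of 18625, 692 were called with the class term, 1002 with the replicate block, 493 with median centring and 589 with plain eBayes. On control chow the count of 0 was 1 after quantile normalization or with the replicate block, and 0 to 1 without 1 array. In the first 2 of these settings 850 and 961 of all 18625 probe sets were called. The title numbers were not used as a pairing in the main fit. Of 18 same-numbered pairs of deviations, 4 correlated above 0.1 (median 0.07, range -0.18 to 0.18). In 15 of 36 checks an array correlated best with its own number. Deviations of 3 arrays from their own group mean are not independent, so this check cannot show that pairing was absent. With the replicate block over both diets 5 members were called, 4 of them shared, with Slc12a1 lost (adjusted p 0.0554, limma) and Fxyd2 gained (adjusted p 0.0462). No alternative changed the counts of 0 for the 3 rosiglitazone comparisons or for the difference in the drug effect.

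Signs turned after quantile normalization over both diets for Umod (0.080), Atp1b1 (0.00072 and 0.081), Fxyd2 (0.011) and Egf (0.020). They also turned on control chow for Umod (0.023), Atp1b1 (0.015 and 0.15) and Egf (0.078), and on rosiglitazone for Umod (0.14), the second Atp1b1 probe set (0.017) and Fxyd2 (0.070). Quantile normalization sets the top of all arrays equal by construction. On control chow the class term turned Egf (0.0057), and the lower class turned Egf (0.026), the second Atp1b1 probe set (0.027) and Bsnd (-0.14). On rosiglitazone the lower class turned Slc9a3 (-0.022). Bsnd on control chow ranged from -0.019 to 0.20 without 1 array, the lowest without lean control 1. The causes of these last turns were not tested.

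The Slc12a1 call over both diets was also lost at an offset of 1 (adjusted p 0.0501), without the filter (0.07), with median centring (0.196) and with plain eBayes (0.105), and its change stayed between 0.17 and 0.40 in the 22 alternatives. Over all probe sets, 2665 were called over both diets and 1142 within the lower class. On control chow 882 were called, 56 within the higher class and 327 to 1010 without 1 array, lowest without obese control 2, and on rosiglitazone 932, against 493 with median centring and 469 to 1039 without 1 array, lowest without obese rosiglitazone 2. For rosiglitazone in obese rats 13 were called, 2 with plain eBayes, 34 with the class term and 0 to 18 without 1 array, with 0 without obese rosiglitazone 1 or obese control 2; in lean rats 1, with up to 24 within the lower class and 1 to 5 without 1 array, and over both body types 11, with 3 to 20 under the alternatives and 3 to 10 without 1 array. For the difference in the drug effect 0 were called, with up to 6 within the lower class.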
